A study of Mus musculus with 4 samples.

Results

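The 4 Hox gene clusters of the mouse were followed as 4 stretches of chromosome in a study of when DNA replicates. Each cluster was taken as a fixed interval on mouse build mm9, and its members were the array probes whose midpoint fell inside. Hoxa was chromosome 6 from 52000001 to 52300000 with 25 probes, and Hoxb was chromosome 11 from 96000001 to 96350000 with 30 probes. Hoxc was chromosome 15 from 102700001 to 102920000 with 21 probes, and Hoxd was chromosome 2 from 74450001 to 74650000 with 21 probes. All 97 cluster probes were usable on every array, out of 169660 usable probes of 170183 on the autosomes and X. The surroundings, up to 1 Mb on each side of a cluster, held another 612 usable probes of 614. On the high-coordinate side of Hoxc, the probes of the chromosome ended 540 kb past the cluster. The rule uses coordinates only and no measured value.

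Cells were mouse embryonic fibroblasts, connective tissue cells grown from embryos, with 1 array in each of 4 groups. In KO cells the floxed Suv4-20h1 allele is deleted, and they were set against control cells. The induced Suv4-20h mutant was set against the non-induced mutant. All 4 samples are labelled as a single cell line, whose number differs between fields of the labels, and the treatment text of all 4 describes deletion by 4-hydroxytamoxifen (1 mM, 24 hours). The labels do not say what control cells received, which promoter drives the recombinase or how the induced cells were induced. Cells took up the nucleotide analogue BrdU for 1 hour and were sorted into early and late S phase. Newly made early DNA (Cy3) and late DNA (Cy5) were hybridised to the same array. Timing is log2 of early over late signal, centred on the median autosomal probe, so that a higher value is earlier replication. The KO and control arrays shared 1 slide and the induced and non-induced arrays another. With 1 array per group there was no test between conditions, and a standard error (SE) over probes covers variation along a region only, not between cultures.

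Hox genes encode homeodomain transcription factors that give the segments of the body axis their identity, and their order along a cluster follows the order of the body regions in which they act. Polycomb group proteins keep silent Hox genes in a repressed chromatin state, and cultured fibroblasts retain the Hox pattern of the site they came from. Suv4-20h enzymes add methyl groups to a lysine of histone H4 and are known for their role in heterochromatin. Replication early in S phase generally goes with active, open chromatin, and late replication with silent chromatin.

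The RefSeq gene table available (build GRCm38.p6) lists 39 Hox genes in these clusters. It was used for names, for order and for the length of the Hoxd run only, since its coordinates are of another build than the arrays. The intervals can be longer than the run of Hox genes. In that build the promoters from Hoxd13 to Hoxd1 run from 74667975 to 74763029, while the Hoxd interval is 200 kb long. Values of a cluster are those of its whole interval. In order of rising coordinate, Hoxa holds 11 genes and ends with Hoxa13, and Hoxb holds 10, starting with Hoxb13 and ending with Hoxb1. Hoxc holds 9 genes, starting with Hoxc13 and ending with Hoxc4, and Hoxd holds 9, starting with Hoxd13 and ending with Hoxd1. Hoxa9, Hoxb9, Hoxc9 and Hoxd9 are paralogues that lie towards the posterior end of their clusters. The nearest protein-coding neighbours are Skap2 and Evx1 at Hoxa, Ttll6 and Skap1 at Hoxb, Calcoco1 and Smug1 at Hoxc, and Evx2 and Mtx2 at Hoxd. Evx1 and Evx2 are even-skipped homeobox genes. The surroundings of 3 clusters also hold a gene for an HP1 heterochromatin protein, with Cbx3 near Hoxa, Cbx1 near Hoxb and Cbx5 near Hoxc.

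The clusters also encode 6 microRNA genes, all of which were matched in the RefSeq table. Those whose seed (bases 2 to 8, in capitals) occurs in more than 1 cluster are shown, to set clusters of different timing beside each other. The miR-196 seed occurs in the early Hoxa, Hoxb and Hoxc clusters, where Hoxb and Hoxc each hold a gene copy of miR-196a. The miR-10 seed occurs in the early Hoxb cluster and the late Hoxd cluster.
mmu-miR-196b-5p (Hoxa): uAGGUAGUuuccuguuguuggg
mmu-miR-196a-5p (Hoxb and Hoxc): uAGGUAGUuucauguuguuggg
mmu-miR-10a-5p (Hoxb): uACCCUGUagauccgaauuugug
mmu-miR-10b-5p (Hoxd): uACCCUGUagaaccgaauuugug

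Promoters from RefSeq, 250 bases before to 50 after the start of a gene, were available for 22 of the Hox genes. The letters CG were counted in them. CG reads the same on both strands, so each dinucleotide was counted once. The 24 Hox promoters held a median of 14.5 CG (4 to 45), against a median of 7 over all 32851 promoters, and 94.6% of all promoters held at least 1. Medians were 17.5 CG over 10 promoters of the early Hoxa cluster and 20 CG over 10 promoters of the late Hoxd cluster. The promoters of the paralogues Hoxa9 and Hoxd9 are shown as examples of an early and a late replicating cluster, with CG in capitals. Hoxa9 (GRCm38.p6, chr6:52227321-52227620, minus strand) had 4 CG and 49.7% G and C. Its CG count was the lowest of the 10 Hoxa promoters, far below their median of 17.5. Hoxd9 (chr2:74697513-74697812, plus strand) had 20 CG, the median of its cluster, and 68.3% G and C. Of all promoters, 68.6% held at least 4 CG and 26.5% at least 20.
Hoxa9 promoter: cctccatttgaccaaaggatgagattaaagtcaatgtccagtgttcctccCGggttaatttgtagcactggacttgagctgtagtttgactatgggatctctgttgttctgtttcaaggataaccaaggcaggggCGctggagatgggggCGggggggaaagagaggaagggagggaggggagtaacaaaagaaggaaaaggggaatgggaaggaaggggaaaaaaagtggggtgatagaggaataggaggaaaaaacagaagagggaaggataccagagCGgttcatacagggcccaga
Hoxd9 promoter: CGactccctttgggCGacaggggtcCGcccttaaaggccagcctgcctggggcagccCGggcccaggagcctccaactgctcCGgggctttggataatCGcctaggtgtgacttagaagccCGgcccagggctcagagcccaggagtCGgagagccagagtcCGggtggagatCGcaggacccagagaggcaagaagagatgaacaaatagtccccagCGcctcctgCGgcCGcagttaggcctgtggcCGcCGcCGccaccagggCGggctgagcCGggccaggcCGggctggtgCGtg

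The Hoxa, Hoxb and Hoxc clusters replicated early on all 4 arrays, and the Hoxd cluster replicated late on all 4. Mean timing of Hoxd was -1.33 ± 0.17 in KO and -0.77 ± 0.13 in control cells, and -1.22 ± 0.12 in induced and -0.87 ± 0.09 in non-induced cells (SE over 21 probes). Only 1 of its 21 probes was above 0 in KO, 2 in control, 0 in induced and 1 in non-induced cells. Across the 12000 windows of 200 kb into which the genome was divided, the Hoxd mean lay at the 12.6th percentile in KO and the 19.9th in control cells. It lay at the 27.0th percentile in induced and the 23.7th in non-induced cells. Hoxd was therefore late on each array without being at the extreme of the genome.

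Hoxa timing was 0.94 ± 0.11 in KO and 0.74 ± 0.14 in control cells, and 0.69 ± 0.09 in induced and 0.86 ± 0.13 in non-induced cells (SE over 25 probes). In the same order of arrays these means lay at percentiles 91.1, 82.2, 72.6 and 86.6 of windows. Hoxb timing was 1.03 ± 0.10 in KO and 0.50 ± 0.10 in control cells, and 1.07 ± 0.10 in induced and 0.96 ± 0.11 in non-induced cells (SE over 30 probes). At Hoxb the control array was the low one, at the 73.1st percentile of windows, while the other 3 arrays lay at percentiles 95.4, 88.5 and 92.2. Hoxc timing was 0.49 ± 0.07 in KO and 0.42 ± 0.08 in control cells, and 0.95 ± 0.13 in induced and 0.99 ± 0.11 in non-induced cells (SE over 21 probes). At Hoxc both arrays of the first slide were lower than both arrays of the second, with percentiles of 68.5, 70.7, 82.5 and 93.3.

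**Figure D1:**
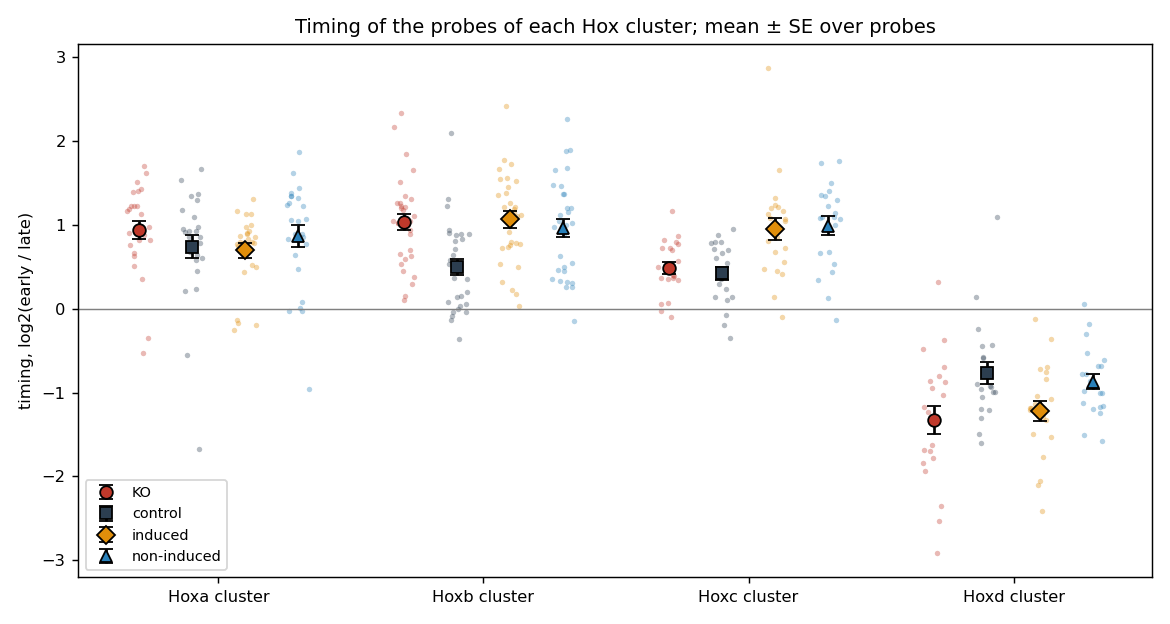
Timing (log2 of early over late signal, vertical axis) of every probe of the 4 Hox clusters (small dots) on the KO, control, induced and non-induced arrays, with the mean and SE over probes (large symbols). The Hoxd means lie between -1.33 and -0.77, and the means of the other clusters lie between 0.42 and 1.07.

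The order of the early clusters differed between arrays. In KO cells Hoxb (1.03) and Hoxa (0.94) lay within their errors of each other and Hoxc (0.49) was lower. In control cells Hoxa (0.74), Hoxb (0.50) and Hoxc (0.42) followed each other, and Hoxb and Hoxc lay within their errors. In induced cells Hoxb (1.07) and Hoxc (0.95) lay within their errors, above Hoxa (0.69). In non-induced cells Hoxc (0.99), Hoxb (0.96) and Hoxa (0.86) all lay within their errors. Hoxd was the lowest of the 4 on each array, with a lowest probe of -2.91 in KO and -1.60 in control cells. Single probes overlapped between clusters: in control cells the lowest Hoxa probe stood at -1.68 and the highest Hoxd probe at 1.09. Neither of these probes was well above background on all arrays. Among probes that were, the lowest Hoxa value in control cells was -0.55 and the highest Hoxd value was -0.44.

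**Figure D2:**
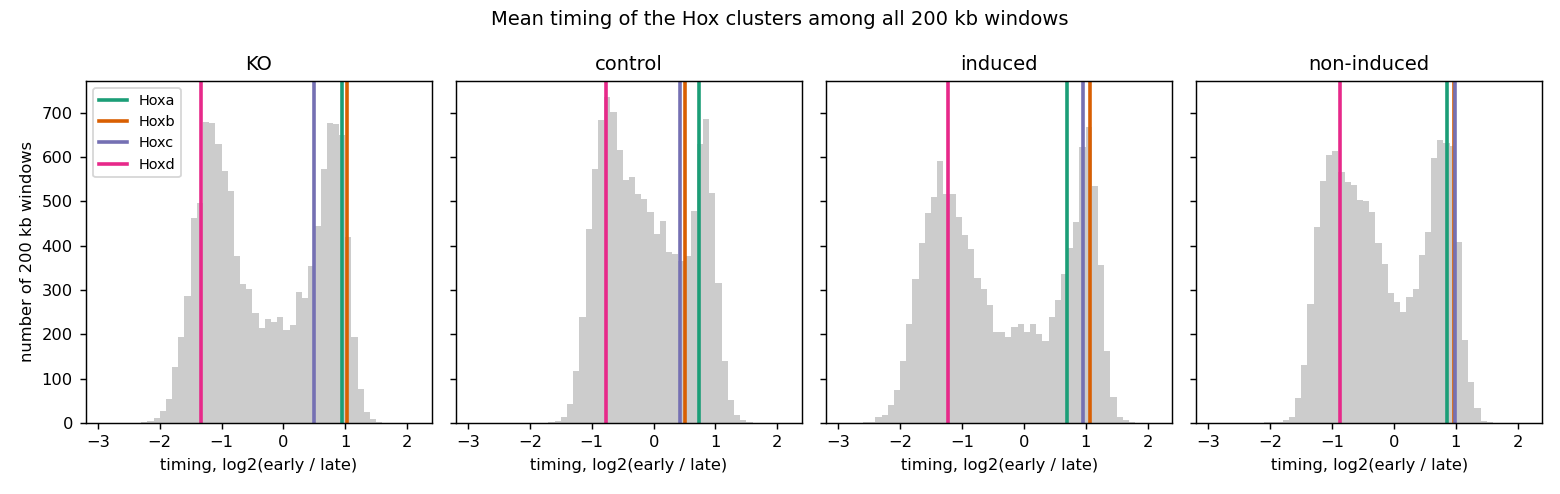
Number of 200 kb windows (vertical axis) at each timing value (log2 of early over late signal, horizontal axis) on each array, with the mean timing of each Hox cluster as a coloured line. The distributions have an early and a late peak, with the Hoxd line on the late side on every array and the other lines on the early side.

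Each cluster sat differently in its surroundings. The Hoxd cluster lay inside a late stretch much longer than itself. All bins of 100 kb were below 0 on all 4 arrays from 73750001 to 75050000 on chromosome 2, which is 1.3 Mb, 13 of the 22 bins covered and 90 probes. Bins at both ends of the region covered were early. The low-coordinate end, 73450001 to 73550000, had timing of 0.36 in KO and 0.68 in control cells, and 0.56 in induced and 0.57 in non-induced cells. The latest bin of the whole stretch was inside the cluster in KO cells (-1.47, 74550001 to 74650000) and just beyond it in control cells (-1.07, 74650001 to 74750000). In induced (-2.09) and non-induced (-1.48) cells it was at 74150001 to 74250000, on the side of Evx2 and Lnpk.

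Mean timing of the Hoxd cluster was lower than that of its 1 Mb flanks by a wide margin, with cluster minus flanks at -0.85 in KO, -0.56 in control, -0.69 in induced and -0.51 in non-induced cells. These contrasts lay at percentiles 9.77, 12.3, 14.4 and 17.2 of the same contrast over all windows. The value rests on how far the flanks reach. With flanks of 500 kb, which lie mostly within the late stretch, it was -0.24 in KO and 0.08 in control cells, and 0.22 in induced and 0.24 in non-induced cells. With flanks of 2 Mb it was between -1.32 and -0.91. The late timing was thus shared with the neighbouring DNA and was not limited to the gene cluster.

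The Hoxa cluster sat at a step in timing. The flank on the Skap2 side had mean timing of 0.97 in KO and 0.90 in control cells, and 0.87 in induced and 0.81 in non-induced cells. The flank on the Evx1 side had 0.13 in KO and 0.43 in control cells, and 0.09 in induced and 0.28 in non-induced cells. The step between the flanks was 0.84 ± 0.07 in KO and 0.48 ± 0.07 in control cells, and 0.79 ± 0.08 in induced and 0.54 ± 0.08 in non-induced cells. The 13 bins of 100 kb from 51000001 to the end of the cluster were above 0 on all arrays, and the first bin past the cluster was -0.06 in KO, 0.35 in control, -0.01 in induced and 0.24 in non-induced cells. Hoxa9 to Hoxa13, the posterior genes, are on the Evx1 side in the gene table.

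Hoxb and Hoxc lay in early surroundings on both sides. All 24 bins around Hoxb and all 18 around Hoxc were above 0 on all 4 arrays. The low and high flanks of Hoxb had timing of 0.85 and 0.68 in KO and 0.82 and 0.74 in control cells, and 1.04 and 0.98 in induced and 0.80 and 0.64 in non-induced cells. Those of Hoxc had 0.68 and 0.68 in KO and 0.85 and 0.79 in control cells, and 1.02 and 1.01 in induced and 0.72 and 0.90 in non-induced cells. Hoxb minus its flanks was 0.28 in KO and -0.28 in control cells, and 0.06 in induced and 0.25 in non-induced cells. Hoxc minus its flanks was -0.19 in KO and -0.41 in control cells, and -0.07 in induced and 0.21 in non-induced cells. With these flanks Hoxb was later than its surroundings only on the control array, and the control value of Hoxc was also the lowest of the 4 arrays.

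**Figure D3:**
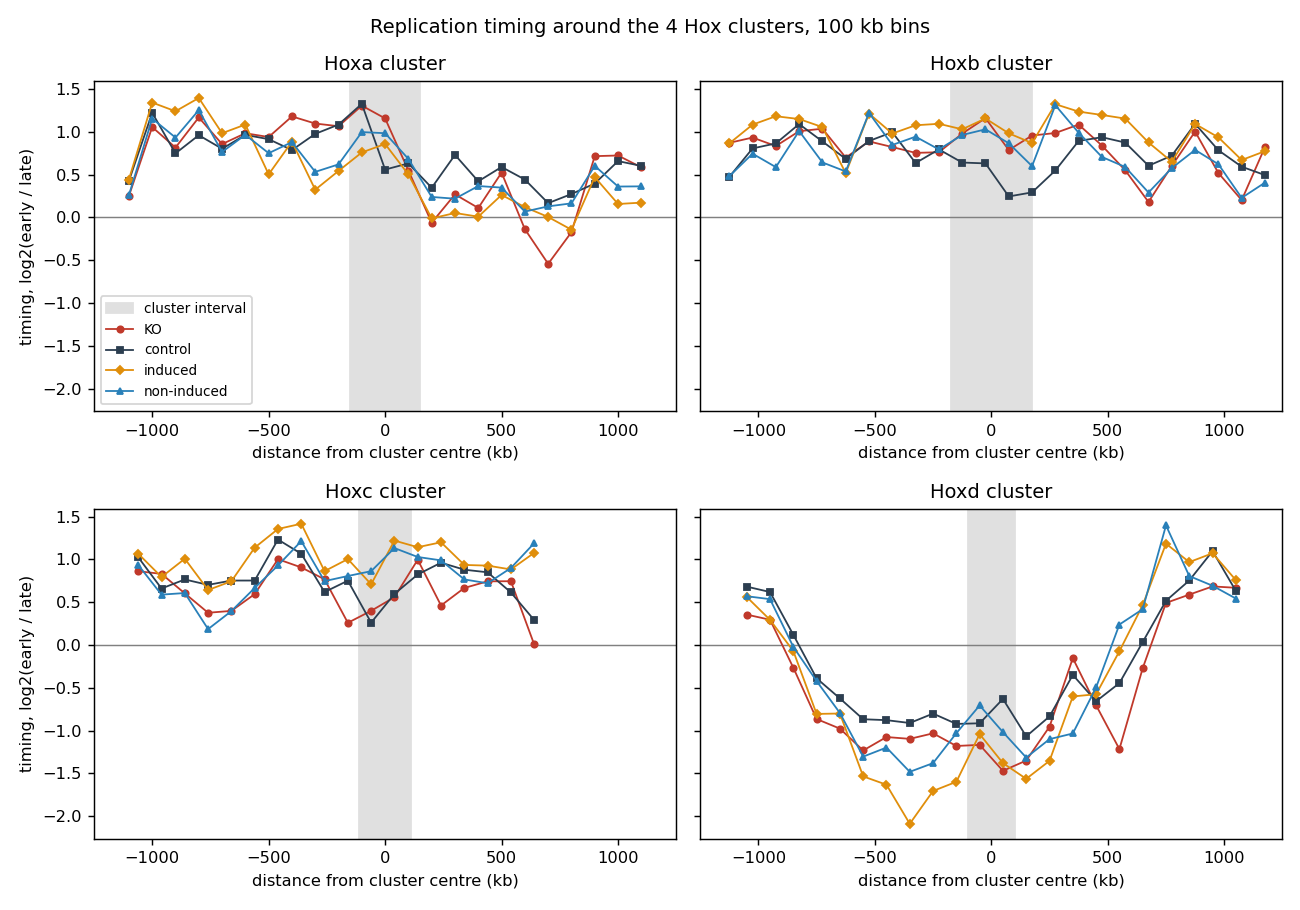
Mean timing in bins of 100 kb (vertical axis, log2 of early over late signal) against the distance from the centre of each Hox cluster in kb (horizontal axis), for the KO, control, induced and non-induced arrays, with the cluster interval shaded. Hoxd lies in a basin that has a shared stretch of 1.3 Mb below 0 on all arrays. On each array the values below 0 run past that stretch, furthest on the KO array. Hoxa lies at the edge of a stretch above 0 on all arrays, past which only the KO and induced lines cross 0. Hoxb and Hoxc lie in early surroundings where the control line dips inside Hoxb.

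The first comparison, of KO with control cells, asked how loss of Suv4-20h1 goes with timing. The Hoxb cluster replicated earlier on the KO array, and Hoxa, Hoxc and Hoxd did not pass the call. The call had 2 parts. A difference had to reach 0.45 log2, which is 0.25 of the span from the 10th to the 90th percentile of windows in control cells, and it had to reach 3 SE. By this rule 1 of the 4 clusters was called earlier and 0 later, while 8.02% of all windows were called earlier and 22.2% later. The median window differed by -0.16 with arrays centred on probes. With the median window as the centre, 1507 windows were later and 1831 earlier in KO cells, so the lean of the genome towards later depends on the centre. Of the 97 cluster probes 37.1% were lower in KO cells, against 56.5% of all probes, and the median of the 4 cluster differences was 0.13. This share pools unlike clusters, with 17 of 21 probes lower at Hoxd, 4 of 30 at Hoxb, 8 of 25 at Hoxa and 7 of 21 at Hoxc.

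At Hoxb, KO minus control was 0.54 ± 0.10 (SE over 30 probes), with 26 of 30 probes higher in KO cells, and lay at the 93.8th percentile of window differences. Both flanks together differed by -0.02 ± 0.04 over 190 probes. The early channel of the Hoxb probes, relative to its array median, was 0.41 in KO and -0.12 in control cells, and the late channel was -0.70 in KO and -0.64 in control cells. Over the flanks both channels were higher in KO cells, by 0.16 in the early and 0.13 in the late channel. The bin just before the cluster, on the Ttll6 side, differed by -0.03, and the 4 bins that overlap it by 0.34, 0.53, 0.54 and 0.66 in order of coordinate. The next 2 bins, on the Skap1 side, differed by 0.44 and 0.19, so the higher KO values ran past the cluster on that side. Among bins of 50 kb in the cluster the largest difference, 1.13 ± 0.40, rested on 3 probes at 96300001 to 96350000, with 1.46 in KO and 0.33 in control cells. Among 200 kb windows that overlapped a cluster, the single one called was 96200001 to 96400000, with 0.88 in KO and 0.27 in control cells (0.61 ± 0.15). Single genes were not placed on probes, so how much of this bin and window is Hox gene DNA is not known. The window also reaches past the interval on the Skap1 side.

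The Hoxb call depended on the control array. Against the non-induced array, from the other slide, the KO cluster differed by 0.07 ± 0.07 and was not called. After all arrays were set to equal spread it was 0.38 ± 0.11 and with the median over probes 0.45, also not called. With the median window as the centre it was 0.72.

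At Hoxd, KO minus control was -0.56 ± 0.23 (SE over 21 probes), larger than the size threshold but less than 3 SE. In KO cells 17 of 21 probes were lower, with a median difference of -0.25. A single probe at 74589226 to 74589285 had timing of -2.54 in KO and 1.09 in control cells, a difference of -3.63, and without it the mean difference was -0.41 ± 0.17. The early channel of the Hoxd probes was -2.28 in KO and -0.99 in control cells, and the late channel -1.02 in KO and -0.24 in control cells. Early signal was well above background at 12 of the 21 probes in KO and 19 in control cells. A filter on KO signal would drop probes that are low in KO cells, so brightness was taken from the induced and non-induced arrays, a choice made after the values were seen. Over the 18 Hoxd probes well above background in both channels on those arrays, KO minus control was -0.27 ± 0.14. Over the 12 probes that passed on all 4 arrays, the planned filter, it was -0.0075 ± 0.11. The flanks of Hoxd differed by -0.27 ± 0.04, with 92 of 125 probes lower in KO cells. With loess within arrays the cluster differed by -0.15 ± 0.17 and with quantile normalization by -0.17 ± 0.25, and with another background correction (normexp) its sign turned, at 0.12 ± 0.08.

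At Hoxa, KO minus control was 0.20 ± 0.11, with 17 of 25 probes higher in KO cells, and was not called. With 50 kb taken off both ends of the cluster it was 0.43 ± 0.10 over 18 probes, and with the median window as the centre 0.39 ± 0.11, also not called. The difference was uneven along the cluster. It was 0.02 ± 0.09 at 52050001 to 52100000, 0.38 ± 0.07 in the next 50 kb and 0.93 ± 0.15 at 52150001 to 52200000, where timing was 1.29 in KO and 0.36 in control cells over 4 probes. It was 0.44 ± 0.24 in the 50 kb after that, and -0.43 ± 0.22 in the last 50 kb, towards Evx1, with 0.57 in KO and 1.01 in control cells. The flank on the Evx1 side was lower in KO cells by a mean of -0.30 ± 0.05, with 58 of 80 probes lower, and the flank on the Skap2 side differed by 0.07 ± 0.04. In the Evx1 flank the window from 52800001 to 53000000 was called later, with -0.34 in KO and 0.22 in control cells (-0.57 ± 0.08, 22 probes). It was the only 1 of 37 flank windows of the 4 clusters called in this comparison. Over all windows 22.2% were called later and 8.02% earlier. Flank windows were picked by their centre, so some of them reach into a cluster. At Hoxc, KO minus control was 0.07 ± 0.05, with 14 of 21 probes higher in KO cells, and the flanks differed by -0.15 ± 0.05. Equal spread turned the sign of both, to -0.0035 ± 0.14 at Hoxa and -0.05 ± 0.06 at Hoxc.

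**Figure D4:**
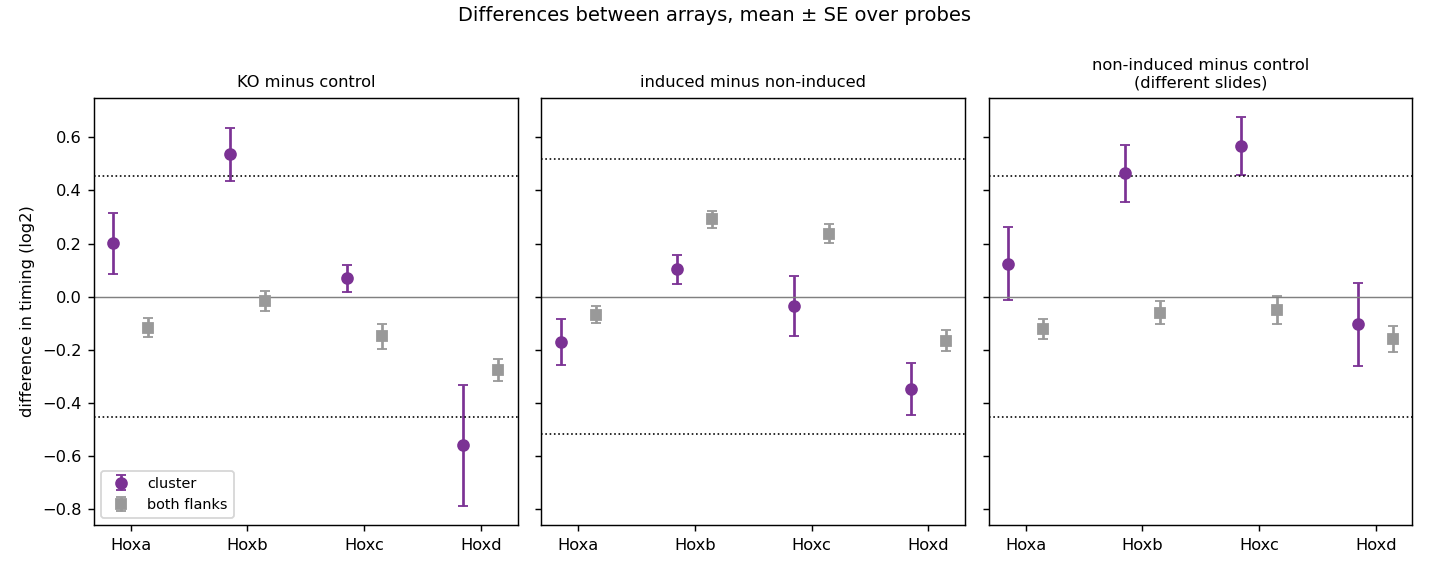
Difference in timing (log2, vertical axis) of each Hox cluster and of both its flanks, as mean and SE over probes, for KO minus control, induced minus non-induced and non-induced minus control, with dotted lines at the size a call needs. Hoxb lies above the line in KO minus control while its flanks lie at -0.02, and Hoxb and Hoxc lie above it in the comparison across slides.

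The second comparison, of induced with non-induced mutant cells, called none of the 4 clusters. In this comparison 11.9% of all windows were called later and 0.467% earlier, at a size threshold of 0.52, and the median window differed by -0.13. Of the 97 cluster probes 59.8% were lower in induced cells, against 57.1% of all probes. With 1 array per group these counts are a description of these arrays, not a test.

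At Hoxd, induced minus non-induced was -0.35 ± 0.10, with 16 of 21 probes lower in induced cells, below the size threshold. After all arrays were set to equal spread it was -0.07 ± 0.09, and it was 0.06 with the trend of the difference on timing removed, where its sign turned. At Hoxa the difference was -0.17 ± 0.09, with 19 of 25 probes lower in induced cells, and -0.36 ± 0.10 with equal spread. At Hoxb it was 0.10 ± 0.05, with 19 of 30 probes higher, and -0.16 ± 0.06 with equal spread. At Hoxc it was -0.04 ± 0.11, with 12 of 21 probes lower, -0.28 ± 0.10 with equal spread and -0.12 ± 0.07 without its most changed probe. With the median window as the centre the sign turned at Hoxa (0.03) and at Hoxc (0.17).

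Before arrays were set to equal spread, the surroundings of Hoxb and Hoxc had higher values in induced cells, by more than the clusters themselves. With equal spread the rise of the flanks shrank, but their differences still lay above those of the clusters. The Hoxb flanks were 1.01 in induced and 0.72 in non-induced cells, a difference of 0.29 ± 0.03 with 143 of 190 probes higher. The Hoxc flanks were 1.02 in induced and 0.78 in non-induced cells, a difference of 0.24 ± 0.04 with 97 of 141 probes higher. With equal spread the flank differences were 0.06 ± 0.03 at Hoxb and -0.0012 ± 0.04 at Hoxc, and the clusters differed by -0.16 and -0.28. Relative to the flanks the change was then -0.22 ± 0.07 at Hoxb and -0.28 ± 0.11 at Hoxc, near the -0.19 and -0.27 before scaling. With quantile normalization the flanks differed by 0.18 at Hoxb and 0.13 at Hoxc, and the clusters by -0.03 and -0.14. Flank values also rose above those of both clusters with loess, with normexp and with the median window as the centre. In the Hoxb flank, 96600001 to 96800000 was the only 1 of the 37 flank windows called, and it was earlier in induced cells. Its timing was 1.17 in induced and 0.65 in non-induced cells (0.53 ± 0.07, 18 probes). Over all windows 0.467% were called earlier and 11.9% later.

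Taking the change of each cluster relative to its own flanks removes a shift shared by the locus. For KO minus control this change was 0.32 ± 0.12 at Hoxa, 0.55 ± 0.11 at Hoxb and 0.22 ± 0.07 at Hoxc. At Hoxd it was -0.28 ± 0.23. These values lay at percentiles 85.1, 94.7, 77.9 and 20.0 of the same measure over windows. At Hoxb the change was 0.03 ± 0.08 with the non-induced array in place of control, and at Hoxc that array turned it to -0.40 ± 0.13. At Hoxd it ranged over the alternatives from -0.53 to 0.22. For induced minus non-induced the change was negative at all 4 clusters, with -0.10 ± 0.09 at Hoxa, -0.19 ± 0.06 at Hoxb, -0.27 ± 0.12 at Hoxc and -0.18 ± 0.11 at Hoxd. Their percentiles among windows were 30.7, 18.5, 10.6 and 19.0. With the control array in place of non-induced the change was positive at Hoxa (0.14 ± 0.14), Hoxb (0.34 ± 0.10) and Hoxc (0.34 ± 0.14), and it was -0.13 ± 0.15 at Hoxd. The sign of the first 3 therefore depended on the array compared against. At Hoxd the induced change was -0.02 ± 0.09 with equal spread and ranged over the alternatives from -0.26 to 0.046.

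The comparison of non-induced with control cells, added after the values were seen, sets the arrays that the study used as its baselines side by side. Slide and cells cannot be told apart in it. The same rule, with the control spread, called 8.17% of windows earlier and 10.8% later, and the median window differed by -0.07. Hoxb was called earlier in non-induced cells (0.46 ± 0.11, 23 of 30 probes higher), and so was Hoxc (0.57 ± 0.11, 17 of 21 probes higher). Hoxa differed by 0.12 ± 0.14 and Hoxd by -0.10 ± 0.16. The flanks of Hoxb and Hoxc differed by -0.06 ± 0.04 and -0.05 ± 0.05. At Hoxb this difference was close to that of KO with control cells, and both share the control array.

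A probe of Hoxb and a probe of Hoxc were printed 5 times on each array, which gives the error of measurement within an array. The Hoxb probe, at 96001753 to 96001812, had timing of 0.45 ± 0.23 in KO and 0.54 ± 0.29 in control cells, and 0.54 ± 0.15 in induced and 0.45 ± 0.14 in non-induced cells (SD over 5 spots). Its 4 means lay within the spot error, so this probe at the Ttll6 end did not show the low control value of the cluster. The Hoxc probe, at 102889609 to 102889668, had -0.03 ± 0.35 in KO and -0.35 ± 0.17 in control cells, and 0.47 ± 0.18 in induced and 1.098 ± 0.021 in non-induced cells. It was higher on both arrays of the second slide, as the mean of its cluster was.

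Outside the 4 loci, 11955 windows were searched for timing on the 4 arrays most like that of each cluster, by Euclidean distance. Hoxb was closest to chromosome 9 from 121800001 to 122000000 (distance 0.031), where timing was 1.02 in KO and 0.52 in control cells, and 1.08 in induced and 0.96 in non-induced cells. Within a distance of 0.1 there were 2 windows for Hoxb, 1 for Hoxa, 2 for Hoxc and 5 for Hoxd. That window was chosen for its likeness and shows nothing beyond it.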

How the data were processed

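Per the labels' protocols, BrdU-labelled early and late S phase DNA was immunoprecipitated, amplified genome-wide and labelled with Cy3 and Cy5, with no dye swap. Per the file headers, the scanner software was Agilent Feature Extraction 11.5.1.1 (version 9.1 in the submitters' processing notes), and the processed signal is an intensity after background subtraction and 1 linear dye factor per channel (4.75 to 6.47 for green, 1.77 to 4.02 for red). The log10 ratio that was deposited puts late over early, and the value table gave identical log10 values (tolerance of 0) for all 180880 spots of an array. The columns for outliers, saturation and signal well above background are spot flags of 0 or 1, per the file headers. Raw median signals and background medians were read for the normexp alternative. Coordinates are on mm9.

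Control spots and outlier spots (154 to 447 per array) were left out, spots were averaged per probe, log2 of early over late was centred on the autosomal median, and windows of 200 kb with at least 5 probes were formed. Saturated spots (11 to 28 per array) were kept. The spread of windows (90th minus 10th percentile) was 2.31 in KO and 1.81 in control cells, and 2.70 in induced and 2.07 in non-induced cells. Noise between neighbouring probes (0.42 to 0.55 in the file headers) was outside the range the software accepts, and 1 array per group limits the precision. Every cluster, flank and called window is named, and the intervals, lists and tests were chosen with earlier results of these data known. Single Hox genes, and the planned lists of TALE cofactors, Polycomb and Trithorax genes, were not placed on probes, since the annotation at hand is of another build. Alternatives covered scaling, quantile, loess, background correction (normexp, offset 50, on raw median signals), dim probes, centre, odd and even probes, interval and flank width, thresholds and the array compared against. The call rule was checked on simulated data with known changes and independent probe noise. Those changes were larger than the main cluster differences here, so the check does not cover differences of that size or variation between cultures. Software was Python 3.11.15, numpy 2.4.6, pandas 2.3.3, matplotlib 3.10.9, R 4.3.3 and limma 3.58.1.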

Additional observations from a re-analysis of the deposited data

How the results depend on the processing

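No paired analysis was possible because each group has 1 array and the labels give no replicate numbers. Hoxa, Hoxb and Hoxc stayed above 0 and Hoxd below 0 on each array under all 11 alternatives for timing, with Hoxd between -1.41 and -0.41 in KO cells. Of the 8 cluster differences Hoxb KO minus control was the only one called, and it lost its call under 6 of 17 alternatives. The other 7 differences turned sign in 18 of 119 alternative values and gained a call in 3. Those 6 were arrays scaled to the same spread (0.38), quantile normalization (0.52), the median over probes (0.45), the non-induced array in place of control (0.072), the trend on timing removed (0.44) and a threshold of 0.35 of the spread (0.54). With control in place of non-induced, the induced array was called earlier at Hoxb (0.57) and at Hoxc (0.53, where the sign turned). With a threshold of 0.15, Hoxd was called later in induced cells (-0.35). Relative to flanks, KO minus control moved to 0.0562 (loess) and 0.0468 (normexp) at Hoxc and to 0.22 at Hoxd over probes well above background, and the induced change at Hoxd moved to 0.0458 (normexp). With the arrays compared against exchanged, an alternative chosen after seeing the data, KO changes relative to flanks were 0.0725 at Hoxa, 0.0293 at Hoxb and -0.40 at Hoxc, and induced ones were 0.14 at Hoxa, 0.34 at Hoxb and 0.34 at Hoxc. Centring on windows and the deposited ratio leave or nearly leave a value relative to flanks as it is. Counts of windows called over the genome moved more. They are of 12000 windows, but of 10375 with probes well above background, 8672 with odd and 8678 with even probes and 8323 with windows of 300 kb. Against 2665 windows later in KO cells, there were 1638 with scaling, 1142 with quantile, 1726 with normexp, 1475 with probes well above background, 1507 with windows as the centre, 1213 with odd and 1214 with even probes. Against 962 earlier, there were 1831 with windows as the centre, 1509 at threshold 0.15 and 485 at 0.35. Against 1434 later in induced cells, there were 224 with scaling, 145 with quantile, 905 with loess, 281 with normexp, 599 with probes well above background, 423 with windows as the centre, 626 with odd and 607 with even probes, 2302 at threshold 0.15 and 638 at 0.35. Against 56 earlier, there were 8 with scaling, 19 with quantile, 176 with loess, 23 with probes well above background, 698 with windows as the centre, 20 with windows of 300 kb, 586 at threshold 0.15 and 3 at 0.35. The cause of these moves was not tested. Signal limits Hoxd most, where 12 of 21 probes passed the background flag in both channels of every array, a filter that itself drops probes with low KO signal.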
